A study of Laccaria bicolor with 37 samples.

Results

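The comparison described here set the extramatrical mycelium (ExM) of the ectomycorrhizal fungus Laccaria bicolor S238N, taken 3 days after contact with poplar roots (3 dpi), against free-living mycelium (FLM) of the same age that had never met a plant. Its libraries were chosen by their titles alone. They were 3 ExM and 3 FLM libraries, 6 of the 37 in the time course, and every one of the 23130 gene models in the tables was a member. After a filter on low counts 15533 gene models were tested.

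ExM at 3 dpi came from sandwich co-cultures with Populus tremula x alba clone 717-1B4, a hybrid poplar, grown on agar under cellophane. It was the fungal material lying more than 0.5 cm from any root. EcM, which serves here only for comparison, was everything within 0.5 cm of a root and so held plant tissue as well as fungus. FLM at 3 dpi came from plates that were handled in the same way without a plant, and FLM at T0 from the mycelium before co-culture. Both fungus and plant were thus a single strain and a single clone. Each library counted mRNA fragments per fungal gene model, and the labels call the 3 libraries of a group biological replicates. Total counts were 18405330, 26599988 and 25594793 in ExM and 17351596, 21582096 and 29474203 in FLM at 3 dpi. Levels are given as CPM, counts scaled to the size of their library, which compare libraries and not gene models with each other. No date or sequencing batch is given in the labels.

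Ectomycorrhizal fungi sheathe the fine roots of trees and trade soil nitrogen and phosphorus for plant sugar. The hyphae that grow away from the root explore the soil and feed the root tip, and they stay connected to it through the fungal colony. A colony near a plant can meet it through diffusing compounds before any mantle has formed, while a free-living colony lives on the medium alone. The ExM libraries pool whole mycelium, so that fewer hyphae of a kind and less RNA per hypha cannot be told apart.

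At 3 dpi the mycelium lying away from the roots carried a small and mostly one-sided difference from mycelium without a plant. Genes for a bZIP transcription factor, terpene synthases, tyrosine phosphatases, a small heat shock protein and a nitropropane dioxygenase stood among the highest rises. The falls were fewer and smaller, and included a secreted ribonuclease, a phenylalanine ammonia-lyase and a lysozyme-like glycoside hydrolase. For the last of these a single FLM library stood far above the others. The test called 203 gene models higher in ExM than in FLM, which is 1.31% of those tested, and 33 lower, which is 0.212%. A call needed a Benjamini-Hochberg adjusted p under 0.05 in edgeR's quasi-likelihood test and a change of at least 1 on the log2 scale, in either direction. Of all calls 86.0% were rises, while the median log2 fold change over all tested gene models was 0.01, with quartiles of -0.15 and 0.16. With no fold minimum 495 gene models were higher and 193 lower.

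The count of calls rested on few libraries. Without ExM replicate 2 it was 60 higher and 11 lower, and without ExM replicate 3 it was 108 higher and 9 lower. Without FLM replicate 1 it was 90 higher and 25 lower, without FLM replicate 3 it was 80 higher and 26 lower, and without FLM replicate 2 it was 178 higher and 61 lower. Under every one of the 6 omissions 52 of the 203 rises and 5 of the 33 falls stayed called, and the fold change of all 203 rises stayed positive. A fit on the 6 libraries alone called 78 higher and 22 lower.

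**Figure D1:**
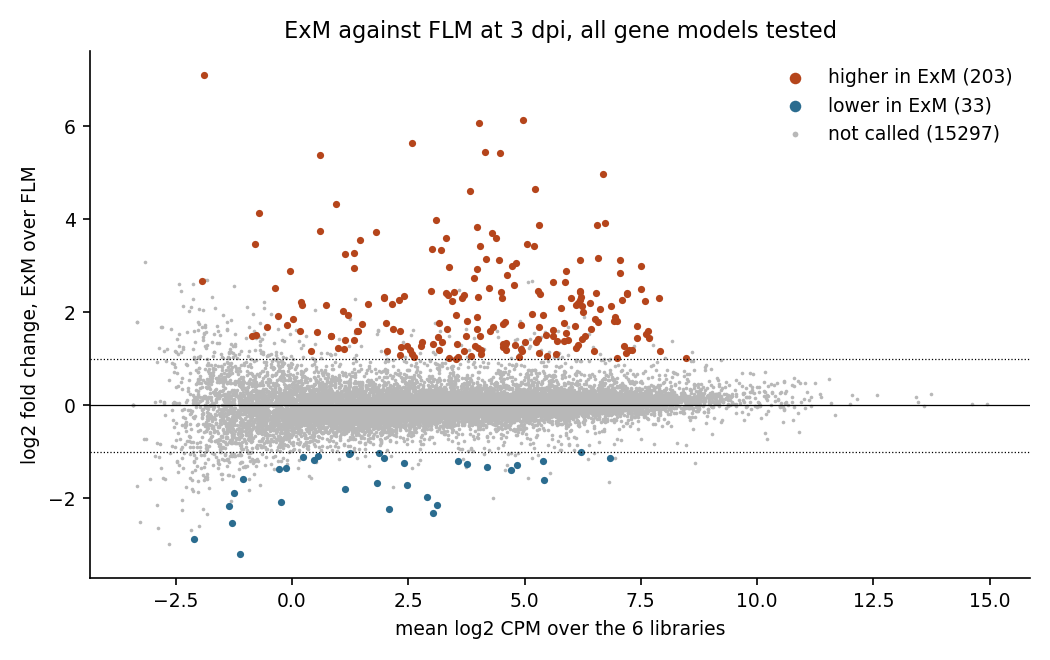
Log2 fold change of ExM over FLM at 3 dpi (vertical axis) against the mean log2 CPM over the 6 libraries (horizontal axis), 1 point per tested gene model. The 203 called higher (red) reach further from 0 than the 33 called lower (blue), and dotted lines mark a log2 fold change of 1 in either direction.

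The 203 rises had a median log2 fold change of 1.89, with a median standard error (SE) of 0.44. Of them 94 reached a log2 fold change of 2, 37 reached 3 and 12 reached 4. In 200 of the 203 every ExM library lay above every FLM library, which holds for 15% of all tested gene models. In 126 the 3 ExM libraries also lay above all 14 FLM libraries of the whole time course, against 4.26% of all tested gene models. The rises were called on the ExM and FLM libraries of 3 dpi, so both shares carry that choice. The rises took 1.12%, 2.71% and 2.03% of all counts in the ExM libraries, against 0.507%, 0.544% and 0.463% in the FLM libraries.

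The largest rise among the named gene models belonged to a bZIP transcription factor (395214), a DNA-binding protein of a family that in fungi includes regulators of stress and nutrient responses. Its annotation in the study also calls it an unknown small secreted protein, so its identity is not settled. Gene model 395214 had 169, 421 and 260.4 CPM in ExM replicates 1, 2 and 3, against 4.19, 6.33 and 1.80 CPM in FLM. Every ExM library lay more than an order of magnitude above every FLM library, and the T0 libraries, at 2.63 and 2.41 CPM, were as low as FLM. The log2 fold change was 6.13 ± 1.12 (SE, n = 3 libraries each; adjusted p = 0.0024), and the call held whichever of the 6 libraries was left out. A second regulator, annotated as a fungal transcription factor (292029), had 191, 1021 and 707 CPM in ExM, against 23.6, 18.4 and 19.2 CPM in FLM (log2 fold change 4.97 ± 1.02, adjusted p = 0.0063). The FLM libraries of this gene were close together and the ExM libraries spread over a wide range, with replicate 1 lowest. The TEA/ATTS domain regulator LbAbaA (298274), related to a factor that controls spore-bearing structures in Aspergillus, had 119, 479 and 325 CPM in ExM, against 34.5, 34.8 and 33.4 CPM in FLM (log2 fold change 3.17 ± 0.75, adjusted p = 0.016). Another TEA/ATTS gene model (656449), named after its values were seen, had 105, 213 and 170 CPM in ExM, against 32.9, 47.3 and 31.4 CPM in FLM (log2 fold change 2.13 ± 0.35, adjusted p = 0.00081). Both TEA/ATTS gene models had every ExM library above every FLM library.

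Both of the called terpene synthases, enzymes that make the carbon skeletons of volatile and defensive terpenoids, rose strongly. Gene model 394925 had 24.9, 225 and 227 CPM in ExM, against 2.46, 2.84 and 1.83 CPM in FLM (log2 fold change 6.08 ± 1.23, adjusted p = 0.0059). Gene model 312850 had 21.1, 120.2 and 99.2 CPM in ExM, against 5.20, 6.87 and 6.19 CPM in FLM (3.72 ± 0.82, adjusted p = 0.0093). In both, ExM replicate 1 was the lowest of its group by a wide margin and was still above all FLM libraries. Reads of near-identical family members could be split between gene models, since each read was allowed several hits.

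Of the gene models annotated as tyrosine phosphatases, which remove phosphate from tyrosine and in many cases switch off kinase signals, 3 rose. Gene model 183494 had 30.9, 220.2 and 147 CPM in ExM, against 3.07, 3.45 and 2.63 CPM in FLM (log2 fold change 5.45 ± 1.2, adjusted p = 0.0093). Gene model 673052, whose annotation also names a protein kinase, had 54.7, 268 and 158 CPM in ExM, against 4.75, 2.34 and 4.19 CPM in FLM (5.42 ± 1.16, adjusted p = 0.0083). Gene model 463346 had 11.7, 58.2 and 44.3 CPM in ExM, against 2.24, 3.70 and 3.33 CPM in FLM (3.61 ± 0.69, adjusted p = 0.0035). The groups did not overlap in any of these gene models, which for 183494 and 673052 was a condition of their choice. The call for 183494 held in 3 of the 6 omissions of one library and that for 673052 in 5. Calcipressin (610516), an inhibitor of the calcium-dependent phosphatase calcineurin, was picked out after its values were seen and had 191, 609 and 434 CPM in ExM, against 49.5, 44 and 47.9 CPM in FLM (3.13 ± 0.69, adjusted p = 0.0097).

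Stress and redox genes were also among the rises. Heat shock protein 20 (384818), a small chaperone that holds damaged proteins in solution, had 60.2, 348 and 233 CPM in ExM, against 7.04, 11.2 and 7.12 CPM in FLM (log2 fold change 4.66 ± 0.96, adjusted p = 0.0066). A 2-nitropropane dioxygenase (467898), which oxidises nitronates, had 23.5, 116 and 89.6 CPM in ExM, against 3.19, 3.82 and 2.43 CPM in FLM (4.61 ± 0.77, adjusted p = 0.0010). Both calls held in all 6 omissions. A peroxidase (708045), of the enzymes that use hydrogen peroxide to oxidise other molecules, had 84.5, 271 and 185 CPM in ExM, against 38, 30.1 and 31.4 CPM in FLM (2.44 ± 0.49). A Cu/Zn superoxide dismutase (303799), which turns superoxide into hydrogen peroxide, had 23.8, 66.6 and 54.5 CPM in ExM, against 11.8, 4.52 and 9.11 CPM in FLM. Its log2 fold change was 2.52 ± 0.64 with an adjusted p of 0.024, and this call held in 1 of the 6 omissions only.

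**Figure D2:**
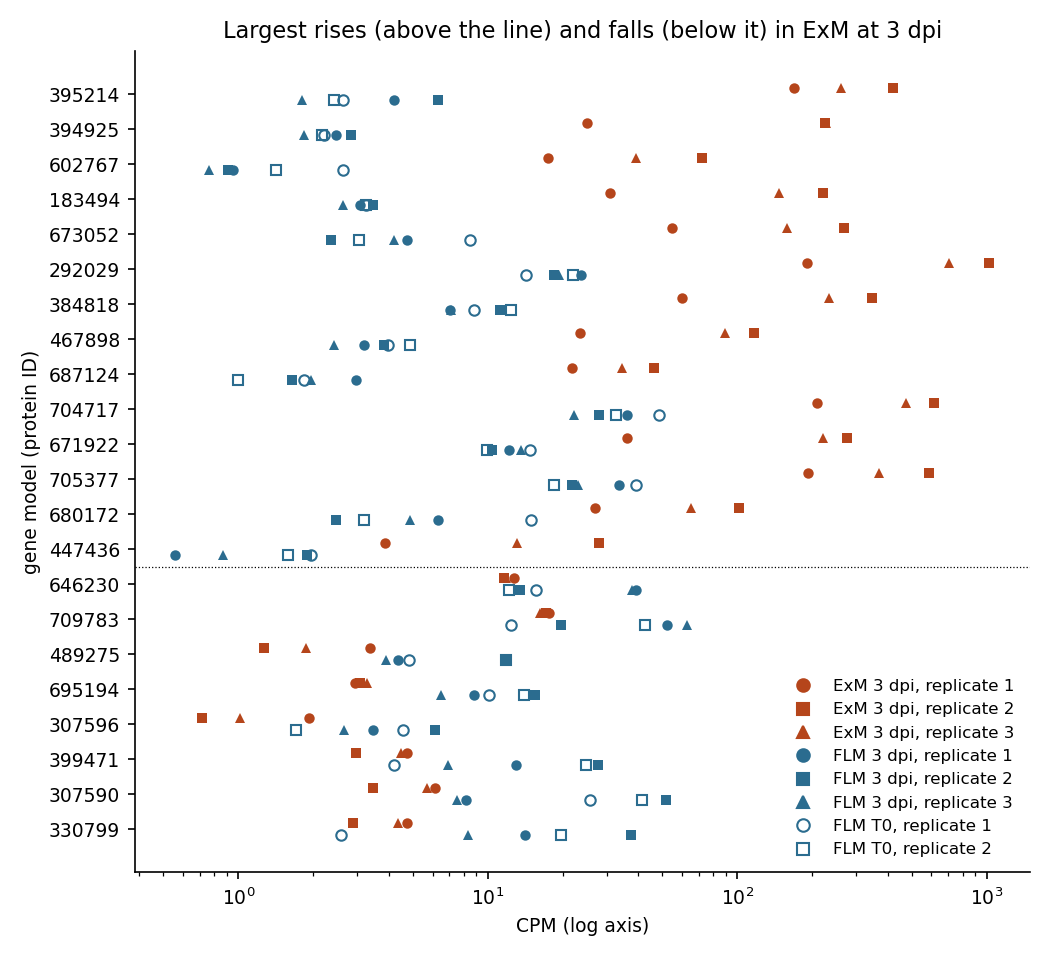
CPM on a log axis for the 14 named rises (above the line) and 8 named falls (below it) in each library at 3 dpi, ExM in red and FLM in blue, with a marker shape for each replicate and open marks for FLM at T0. Only gene models whose red and filled blue points do not overlap were chosen, and in most of the rises ExM replicate 1 is the lowest of the red points.

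Other large rises had no informative annotation. Gene model 602767 had 17.5, 71.9 and 39.4 CPM in ExM and was under 1 CPM in all 3 FLM libraries, at 0.950, 0.905 and 0.765 CPM (log2 fold change 5.63 ± 0.95, adjusted p = 0.0012). A predicted small secreted protein (704717), a class that in this fungus includes symbiotic effectors, had 208, 614 and 476 CPM in ExM, against 36.2, 28 and 22.1 CPM in FLM (3.92 ± 0.58, adjusted p = 0.00037). Gene model 705377 had 193, 585 and 369 CPM in ExM, against 33.6, 21.8 and 23.1 CPM in FLM (3.87 ± 0.69). The other unannotated gene models among the named rises were 687124, 680172 and 447436, with log2 fold changes of 4.0, 3.84 and 3.73. An ABC transporter-like gene model (671922), of a class of pumps that move small molecules across membranes, had 36.3, 276 and 221 CPM in ExM, against 12.1, 10.4 and 13.5 CPM in FLM. Its log2 fold change of 3.88 ± 0.93 (adjusted p = 0.016) stayed called in 1 of the 6 omissions.

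Some metabolic enzymes, transporters and F-box gene models were among the rises as well. An F-box gene model (704262), of the adaptors that choose proteins for ubiquitin tagging, had 165, 564 and 416 CPM in ExM, against 55.9, 45.4 and 57.8 CPM in FLM (log2 fold change 2.85 ± 0.55), and another F-box gene model (477341) rose by 2.97 ± 0.60. A short-chain dehydrogenase (467638), of a broad family of alcohol and ketone oxidoreductases, had 28.3, 132 and 109 CPM in ExM, against 13, 8.92 and 10.4 CPM in FLM (3.07 ± 0.76). An acyl-CoA oxidase or dehydrogenase (654676), which takes the first step in the breakdown of fatty acids, had 78.0, 237 and 189 CPM in ExM, against 38.8, 33.2 and 33.1 CPM in FLM (2.27 ± 0.56). A major facilitator transporter (482338), of a family of small-solute carriers, had 15.4, 109 and 58.4 CPM in ExM, against 7.04, 7.65 and 6.15 CPM in FLM (3.14 ± 0.74). The groups did not overlap in any of these 5 gene models. A glucan 1,3-beta-glucosidase of family GH5 (387953), which acts on beta-glucan, had 15.4, 42.4 and 36.7 CPM in ExM, against 7.71, 9.37 and 8.32 CPM in FLM (1.90 ± 0.40, adjusted p = 0.0076).

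The ExM libraries differed among themselves in the size of these rises. Taken over the 203 rises, the median log2 ratio to the FLM mean was 1.13 in ExM replicate 1, 2.33 in replicate 2 and 1.91 in replicate 3, against 0.04, 0.02 and -0.07 in the FLM libraries. In 172 of the 203 rises, or 84.7%, the order of the ExM libraries was replicate 2, then 3, then 1, an order held by 21.4% of all tested gene models. The highest ExM library had at least 2 times the level of the lowest in 133 rises, and the highest FLM library at least 2 times that of the lowest in 32. The median SD of log2 CPM over the 203 rises was 0.65 in ExM and 0.24 in FLM, whereas over all tested gene models it was 0.12 in ExM and 0.17 in FLM. The spread was thus large for the rises and not for the libraries as a whole, whose correlations of log2 CPM with each other were between 0.988 and 0.993 in ExM and between 0.985 and 0.991 in FLM. The order in ExM was also that of the total counts, and the part of depth in it was not tested.

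The same gene models were followed in the other libraries. At 3 dpi the EcM libraries had median log2 ratios of 1.92, 2.32 and 1.24, the range seen in ExM. The total counts of these EcM libraries were 28869246, 22990327 and 17354653, and the part of depth was not tested. At 7 dpi the ExM libraries had 0.93, 2.20 and 2.45, again with replicate 1 lowest, at total counts of 21296518, 19936240 and 31776065. By 14 dpi the ratios in ExM were 0.70 and 0.68, and at 21 dpi they were 0.91, 0.40 and 0.74. The FLM libraries stayed between -0.07 and 0.50 throughout, with T0 at 0.25 and 0.05. The values of FLM at 21 dpi, 0.34, 0.31 and 0.50, were the highest of the plant-free libraries and overlapped with ExM at that time.

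**Figure D3:**
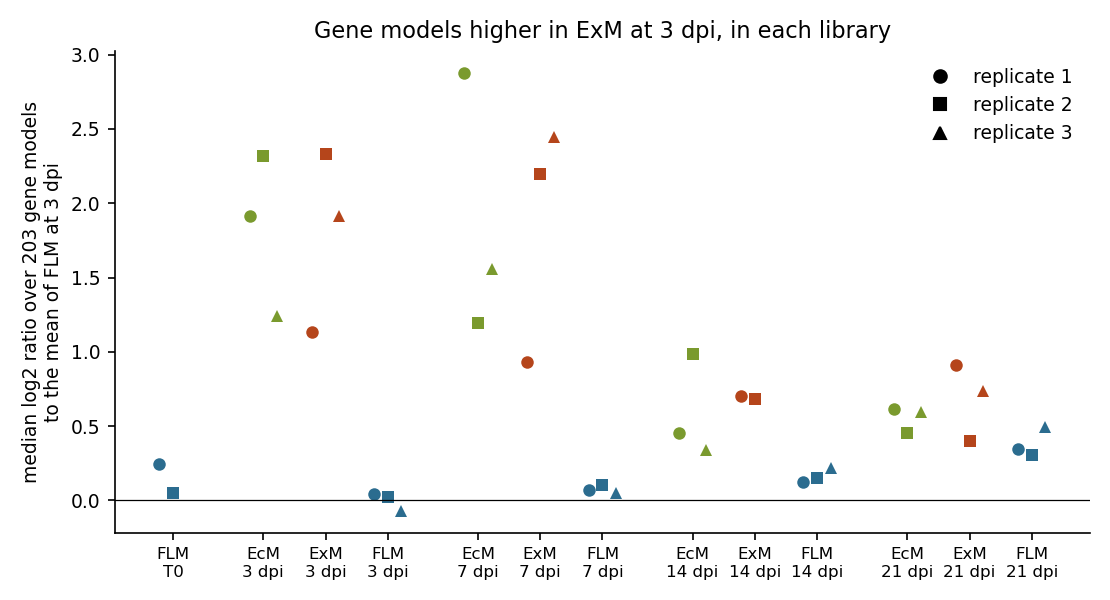
Median log2 ratio to the FLM mean at 3 dpi over the 203 rises, 1 point per library, for FLM at T0 and for EcM, ExM and FLM at 3, 7, 14 and 21 dpi. The libraries of EcM and ExM spread between 0.93 and 2.88 at 3 and 7 dpi, and all FLM libraries lie between -0.07 and 0.50.

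The 6 gene models named for the smallest adjusted p, outside the largest rises and falls, were smaller rises and much alike in the 3 ExM libraries. A choice by adjusted p favours gene models whose libraries lie close together. Nitrite reductase (291348), which reduces nitrite to ammonium in nitrate assimilation, had 86.1, 75.6 and 93.3 CPM in ExM, against 24.5, 12.5 and 29.7 CPM in FLM and 47.9 and 24.7 CPM at T0 (log2 fold change over FLM 1.93 ± 0.22, adjusted p = 7.8e-06). All 3 EcM libraries, at 123, 117 and 111 CPM, lay above ExM, a difference that was not called. The nitrate transporter LbNrt (254042), looked up after these values were seen, had 15.6, 13.6 and 14.4 CPM in ExM, against 8.94, 6.58 and 8.88 CPM in FLM. Its log2 fold change of 0.84 ± 0.24 had an adjusted p of 0.046 but stayed under the fold minimum. A gene model annotated as nitrate reductase (254066), looked up in the same way, had 7.39, 8.19 and 8.87 CPM in ExM, against 3.86, 5.30 and 5.52 CPM in FLM (0.72 ± 0.20, adjusted p = 0.029), and it too was under the fold minimum. At T0 LbNrt had 22.8 and 7.64 CPM, on either side of the ExM libraries.

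The other gene models named for their adjusted p were smaller rises too. Gene model 392750, without annotation, had 33.1, 39.9 and 39.8 CPM in ExM, against 18.7, 12.6 and 14.9 CPM in FLM (log2 fold change 1.29 ± 0.13, adjusted p = 6.7e-07). A major facilitator transporter (250962) had 48.7, 44.6 and 44.5 CPM in ExM, against 21.8, 17 and 22.9 CPM in FLM (1.16 ± 0.13, adjusted p = 5.3e-06). Gene models 683688, 482602 and 480910 rose by 1.44 ± 0.18, 1.81 ± 0.24 and 1.29 ± 0.17, each with an adjusted p under 0.05. The ExM libraries of these gene models lay close together, and their calls held in all 6 omissions. The choice by adjusted p favours both.

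The median over the 33 falls of their mean level was 2.51 CPM in ExM and 5.90 CPM in FLM. They had a median log2 fold change of -1.38 (median SE 0.35), and 8 reached -2. In 30 of 33 every ExM library lay below every FLM library, which holds for 10.5% of all tested gene models, and in 9 the ExM libraries lay below all 14 FLM libraries, against 2.34% of all tested gene models. As for the rises, these shares carry the choice of the falls on the libraries of 3 dpi. The median SD of log2 CPM was 0.25 in ExM and 0.51 in FLM. In 18 of the 33 the highest FLM library had at least 2 times the level of the lowest.

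A predicted secreted ribonuclease (695194), an enzyme that cuts RNA, gave one of the steadiest falls. It had 2.94, 3.08 and 3.28 CPM in ExM, against 8.83, 15.5 and 6.49 CPM in FLM and 10.1 and 13.9 CPM at T0 (log2 fold change over FLM -1.72 ± 0.27, adjusted p = 0.00031), and its call held in all 6 omissions. Phenylalanine ammonia-lyase (184628), which releases ammonia from phenylalanine to give cinnamate, had 26.1, 26.5 and 30.4 CPM in ExM, against 68.4, 58.1 and 65.2 CPM in FLM (-1.21 ± 0.18, adjusted p = 0.00031). The T0 libraries, at 50.5 and 59.3 CPM, lay above ExM as well. A cytochrome P450 (669382), of the heme enzymes that hydroxylate small molecules, had 3.32, 3.99 and 2.87 CPM in ExM, against 9.11, 6.17 and 8.95 CPM in FLM (-1.24 ± 0.26).

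Other falls had a single FLM library that stood apart. A secreted lysozyme-like hydrolase of family GH24 (307590), of the enzymes that cut bacterial cell walls, had 6.15, 3.48 and 5.71 CPM in ExM, against 8.16, 51.9 and 7.52 CPM in FLM, where replicate 2 stood far above the others. Its log2 fold change was -2.15 ± 0.56 (adjusted p = 0.028), called in 3 of the 6 omissions. FLM replicate 2 was likewise the highest for gene model 330799, with 4.76, 2.89 and 4.37 CPM in ExM, against 14.1, 37.6 and 8.35 CPM in FLM (-2.33 ± 0.53), and for gene model 399471 (-1.97 ± 0.41). A carbohydrate esterase of family CE4 (307596), a family that includes chitin deacetylases, had 1.93, 0.712 and 1.01 CPM in ExM, against 3.47, 6.17 and 2.66 CPM in FLM (-1.80 ± 0.47), and its call held in 2 omissions. FLM replicate 2 was instead the lowest, and close to ExM, for gene model 646230, with 12.7, 11.6 and 11.8 CPM in ExM, against 39.4, 13.4 and 37.8 CPM in FLM (-1.33 ± 0.38, called in 1 omission), and for gene model 709783 (-1.40 ± 0.35). The laccase lcc11 (399755), a multicopper oxidase of phenolic compounds, had 1.77, 1.34 and 1.74 CPM in ExM, against 2.52, 3.00 and 4.26 CPM in FLM (-1.04 ± 0.27, adjusted p = 0.023).

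Gene lists placed these genes within their families. Lists chosen by annotation words hold only annotated gene models, and some of that annotation came from the study's lists of regulated gene models. Annotation was present for 77 of the 203 rises and 10 of the 33 falls, against 3215 of all 23130 gene models. The share over all tested gene models is therefore no matched reference for these lists. Among 126 tested transcription factors 8 were higher and 1 lower in ExM (median log2 fold change 0.13), a share called of 7.14% against 1.52% of all tested gene models. The single fall was a second bZIP gene model (336090), with 2.73, 2.97 and 2.31 CPM in ExM, against 6.76, 3.37 and 7.55 CPM in FLM (-1.14 ± 0.31). Of 165 kinases and F-box gene models 10 were higher and none lower (6.06% called, median 0.02), of 201 dehydrogenases and other oxidoreductases 8 were higher and none lower (3.98%, median 0.10), and of 3 terpene synthases 2 were higher. Of 9 tyrosine phosphatases 3 were higher and none lower (33.3%, median 0.16). In each of these families but the terpene synthases most members were not called.

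Several other families also had called members, with medians near 0. Their shares stand beside the 1.52% of all tested gene models with the same limit. Of 232 small secreted proteins 8 were higher and 3 lower (4.74% called, median 0.00), and of 149 carbohydrate-active enzymes 1 was higher and 3 were lower (2.68%, median 0.01). The 8 included gene model 395214, which was also counted among the transcription factors. Of 33 redox defence gene models 2 were higher (6.06%), of 80 heat shock and chaperone gene models 3 (3.75%), of 74 major facilitator transporters 2 (2.70%) and of 51 lipid gene models 1 (1.96%), and none of these lists had a fall. The word chaperone also matched a broad class of protein modification, turnover and chaperones, so the heat shock list holds gene models that are no chaperones. The rise 693825, a RING-type zinc finger, carries that class. The nitrogen list, chosen by words such as ammonium and amino acid permease, had no rise and 1 fall among 38, and that fall was phenylalanine ammonia-lyase, which is no transporter. The 47 ribosomal, 34 respiratory chain, 9 pheromone and 3 hydrophobin gene models held no call, and their medians were 0.10, 0.20, -0.37 and -0.02. The 125 gene models of the protease and inhibitor list had 1 fall and no rise. That fall was 307590, described above as a lysozyme-like glycoside hydrolase and not as a protease. The 15 cytochrome P450 gene models likewise had 1 fall.

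Lists taken from the study's own maps were read with their origin in mind. Its early symbiosis nodes were chosen on these same libraries and are no independent evidence. They had 22 of 25 tested gene models higher and none lower, with a median log2 fold change of 3.42. Its day 7 EcM node, chosen in the same way, had 4 of 7 higher (median 2.48), whereas its late EcM nodes had 3 higher and 1 lower of 106 (median -0.02). Gene sets chosen by the study on nutrient plates, which are other libraries, were described in the same way. The set marked +N had 1 higher and 1 lower of 71 (2.82% called, median -0.09), that marked -C 3 higher of 55 (5.45%, median 0.01) and that marked -C/-N no call in 19 (median 0.12).

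**Figure D4:**
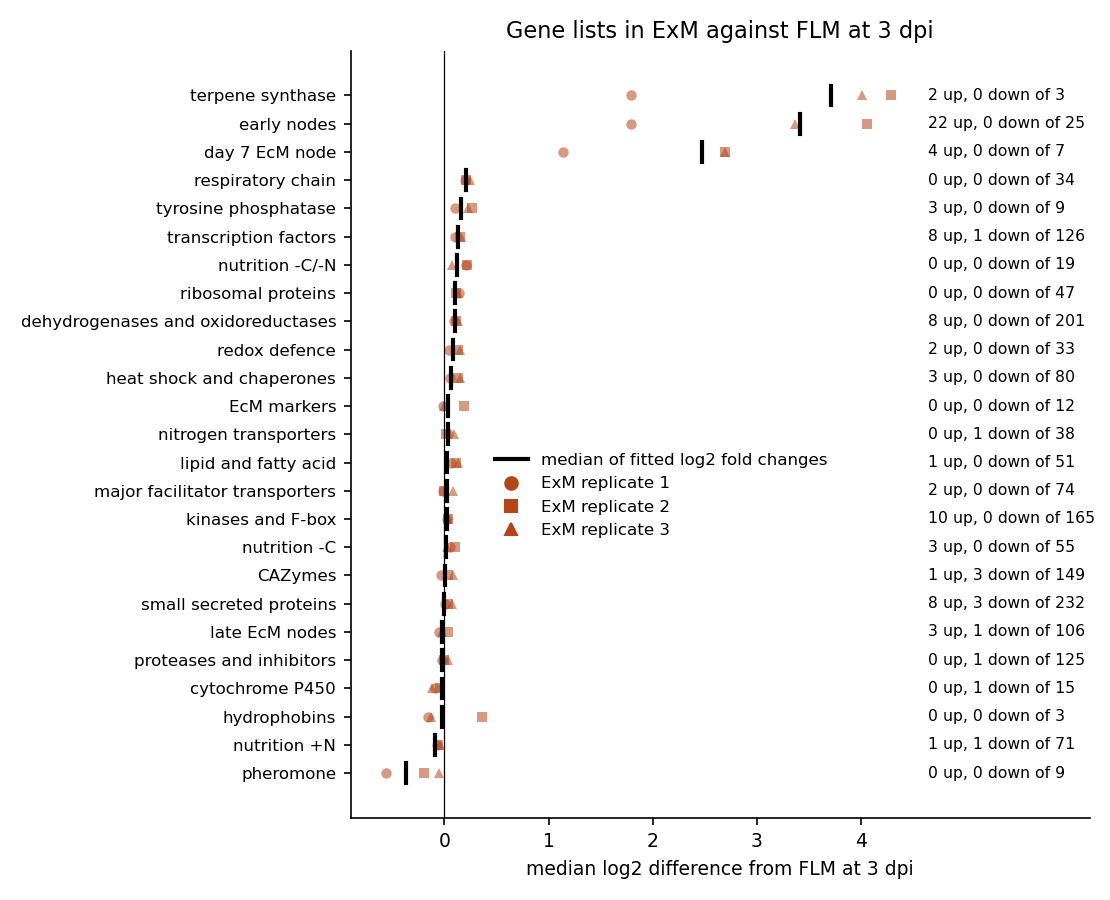
Median log2 fold change of ExM over FLM at 3 dpi for each gene list (bars) with the median in each ExM replicate (points), and beside each list how many of its tested gene models were called. The early nodes reach 3.42, the terpene synthases 3.72, and most other lists lie near 0.

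The 12 markers of root-associated mycelium were set beside this comparison to check the tissue. Only 2 of them were called higher in EcM than in ExM at 3 dpi, so most, taken singly, did not separate these mycelia by a call. Their median log2 fold change in EcM over ExM was 1.33, against -0.002 over all tested gene models. Together they reached between 36.2 and 72.8 CPM in EcM, against 23.8 to 25.2 CPM in ExM and 21.2 to 29.3 CPM in FLM at 3 dpi, and none of the 12 was called between ExM and FLM (median log2 fold change 0.03). A pair of MiSSP genes (620230 and 596686), which code for small secreted proteins induced in mycorrhiza, were at 0 in all ExM and FLM libraries at 3 dpi, and 620230 was at 0 in EcM as well. MiSSP17 (332226) did not exceed 0.445 CPM in ExM. Another gene of this class was among the rises, though it is not on the marker list and was picked out after its values were seen. MISSP23.6 (328309) had 3.69, 10.6 and 6.36 CPM in ExM, against 0.838, 2.01 and 1.6 CPM in FLM (log2 fold change 2.19 ± 0.45, adjusted p = 0.0053). It was the only call, or 5.26%, among the 19 tested gene models with a MISSP symbol, whose median log2 fold change was 0.40.

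A direct test between EcM and ExM at 3 dpi called 6 gene models higher and none lower in EcM, 0.0386% of those tested, while 467 had an unadjusted p under 0.05. A secreted chitinase (674406), which cuts the chitin of fungal walls, had 5.52, 4.66 and 1.48 CPM in EcM, against 0.00, 0.356 and 0.324 CPM in ExM (log2 fold change 3.99 ± 0.67, adjusted p = 0.0086). A gti1/pac2 domain gene model (603166), of a family of fungal regulators of morphology, had 2.07, 1.76 and 0.741 CPM in EcM, against 0.00, 0.119 and 0.162 CPM in ExM (3.88 ± 0.51). Both had few counts in ExM, which leaves the size of these folds uncertain. An acetylglucosaminyltransferase (647187), a sugar-transferring enzyme, had 45.7, 33.9 and 17.3 CPM in EcM, against 7.87, 7.16 and 8.78 CPM in ExM (2.03 ± 0.24), and a FAD-binding oxidoreductase (617261) rose by 1.18 ± 0.20 in EcM. Gene models 298392 and 486416, without annotation, rose by 1.08 and 1.11. None of the 203 rises was called in this test, where their median log2 fold change was 0.05 with quartiles of -0.13 and 0.16. The rises were picked for their level in these same ExM libraries, so these values carry that choice. With 0.0386% of all tested gene models called, the absence of calls among the rises is no result about them. This test had 2 calls without ExM replicate 3 or without EcM replicate 1, 3 without ExM replicate 1 or without replicate 2, and 21 without EcM replicate 3. With only its 6 libraries it had none.

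Few gene models were called in FLM over the first 3 days. Between FLM at 3 dpi and FLM at T0 no gene model was called higher and 7 were lower, 0.0451% of those tested, while 1522 had an unadjusted p under 0.05 in the same edgeR test. Of the 203 rises 1 was among those 7 (450011), which is without annotation and is named here for that reason only. It had 7.65, 8.22 and 10.1 CPM in ExM and 7.52 and 10.7 CPM at T0, against 2.57, 4.11 and 3.86 CPM in FLM at 3 dpi. ExM at 3 dpi against FLM at T0, a comparison that shares its ExM libraries with the main one and in which the FLM is younger, called 121 gene models higher (0.779%) and 84 lower (0.541%). The median log2 fold change of the 203 rises was 1.69 over T0 and 1.89 over FLM at 3 dpi. Of these rises 93, or 45.8%, were called higher over T0, and in 174 every ExM library lay above both T0 libraries. Of the total of 205 calls against T0 (1.32%), 73 were left without ExM replicate 2 and 101 without ExM replicate 3, there were 341 without T0 replicate 2, and a fit on its 5 libraries alone called 4.

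At 7 dpi the comparison of ExM with FLM used separate libraries, and the rises of 3 dpi were largely present in it. It called 306 gene models higher in ExM, 1.97% of those tested, and 8 lower, 0.0515%, or 2.02% together. Of the 203 rises 148 were called higher, which is 72.9% of the rises and 48.4% of the 306. Their median log2 fold change was 1.90 at 7 dpi, and 202 were positive. The bZIP transcription factor (395214) averaged 407 ± 229 CPM in ExM and 2.39 ± 0.04 CPM in FLM at 7 dpi (SD, n = 3 libraries each), and the terpene synthase 394925 averaged 256 ± 233 CPM in ExM and 2.08 ± 0.33 CPM in FLM. As at 3 dpi, the ExM libraries were widely spread, from 143 to 544 CPM for the bZIP gene model and from 24.2 to 490 CPM for the terpene synthase.

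At 14 and 21 dpi little of this difference was left. At 14 dpi, with 2 ExM libraries, 7 gene models were higher (0.0451%) and none lower in edgeR, while 943 had an unadjusted p under 0.05. None of the 203 rises was called (median log2 fold change 0.45, 179 positive). At 21 dpi 155 were higher (0.998%) and 102 lower (0.657%), and 10 of the 203 rises were called higher, 4.93% of the rises and 6.45% of the 155 (median 0.23, 146 positive). The bZIP transcription factor (395214) kept a large difference at 21 dpi, with 115 ± 92.6 CPM in ExM and 3.14 ± 0.72 CPM in FLM (log2 fold change 5.21, adjusted p = 0.0022). It was not alone among the largest rises in its fitted fold change at 21 dpi. Gene models 687124, 673052 and 394925 had 3.63, 3.10 and 3.09, whereas 467898 and 671922 had -0.19 and -0.01. The falls did not recur. Their median log2 fold change was -0.08 at 7 dpi, 0.21 at 14 dpi and 0.03 at 21 dpi, and 1 of 33 was called lower at 7 dpi, none at 14 dpi, and 3 lower and 2 higher at 21 dpi.

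The change of the ExM effect between days was tested directly, as the difference of the fold changes of a later day and of 3 dpi. From 3 to 7 dpi 18 gene models were called, 14 in the positive and 4 in the negative direction (0.0901% and 0.0258%), and none of them was among the 203 rises, of which 15 had an unadjusted p under 0.05 in the negative direction. From 3 to 14 dpi 35 were called (24 positive and 11 negative, 0.155% and 0.0708%), and 9 of the 203 rises were among the negative ones, with 123 at an unadjusted p under 0.05. From 3 to 21 dpi 396 were called, or 2.55% (192 positive and 204 negative, 1.24% and 1.31%), and 65 of the 203 rises were among the negative ones. Of the 33 falls 2, 5 and 14 were called positive at the 3 later days. The rises and falls were picked for their size at 3 dpi, so these shares also carry that choice.

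The counts for 7 and 14 dpi leaned on single libraries. When FLM replicate 2 of 3 dpi was left out, the 18 calls became 49 and the 35 calls became 75. When FLM replicate 2 of 7 dpi was left out, the 18 became 11. Omitting ExM replicate 1 or 2 of 14 dpi turned the 35 into 7 or 16, omitting FLM replicate 1 or 2 of that day into 17 or 18, omitting ExM replicate 2 or 3 of 3 dpi into 15 or 13, and omitting FLM replicate 1 of 3 dpi into 16. The 396 calls were 749 without FLM replicate 2 of 21 dpi.

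Single gene models showed the loss. The 2-nitropropane dioxygenase (467898) averaged 49.1 ± 35.2 CPM in ExM and 5.10 ± 0.69 CPM in FLM at 7 dpi, then 7.43 ± 1.30 CPM in ExM and 8.46 ± 1.14 CPM in FLM at 21 dpi, and its ExM effect was lower at 21 than at 3 dpi by a log2 difference of -4.81 ± 1.04 (adjusted p = 0.0044). Nitrite reductase (291348) averaged 22.8 ± 1.86 CPM in ExM and 13.5 ± 0.33 CPM in FLM at 7 dpi, and 11.4 ± 0.04 CPM in ExM and 9.13 ± 1.65 CPM in FLM at 21 dpi, with an adjusted p of 0.0017 for the difference of -1.61 between 21 and 3 dpi. Its level was lower at 21 than at 3 dpi in both mycelia. The secreted ribonuclease (695194), low in ExM at 3 dpi, averaged 17 ± 4.72 CPM in ExM and 14.0 ± 1.33 CPM in FLM at 7 dpi (difference from 3 dpi 2.00 ± 0.36, adjusted p = 0.0057).

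**Figure D5:**
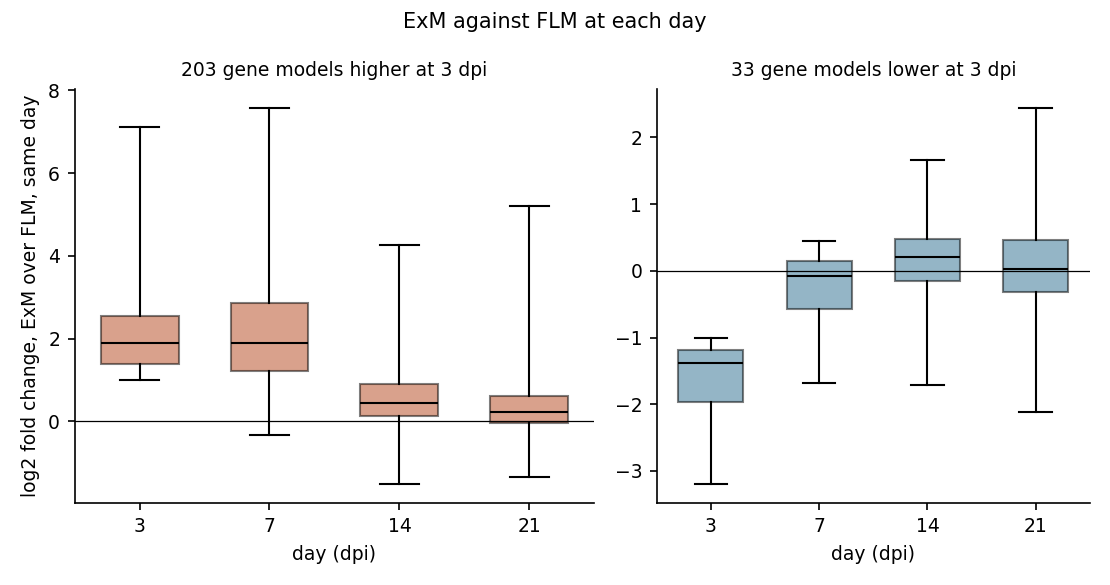
Log2 fold change of ExM over FLM at 3, 7, 14 and 21 dpi for the 203 gene models called higher and the 33 called lower at 3 dpi (box, quartiles; line, median; whiskers, full range). The median of the rises is 1.89 at 3 dpi and 1.90 at 7 dpi, then 0.45 and 0.23, and that of the falls is near 0 from 7 dpi on.

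At the edge of the fold minimum the called gene models 593402, 296997 and 709570 had log2 fold changes of 1.00, -1.01 and 1.02, and 658076, 329361 and 697229, with 0.99, -0.99 and -0.99, were not called. In 2 of the 203 rises no FLM library exceeded 3 counts, so that their fitted fold change gives no size. Gene model 297422 had 5, 31 and 21 counts in ExM and 0 counts in all 3 FLM libraries, and was at least 6.0-fold higher when FLM was set to 3 counts per library. Gene model 591269 had 24, 53 and 24 counts in ExM, against 3 counts in each FLM library, where counting error is of the size of the value.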

How the data were processed

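The authors deposited, for each of 37 libraries, raw read counts and RPKM values per gene model. Per the labels and methods, total RNA was made into stranded mRNA libraries, and the authors used CLC Genomics Workbench to trim paired reads and to map them on the transcripts of the Laccaria bicolor version 2 annotation, allowing up to 10 hits per read. Whether the deposited counts hold unique or all hits, and whether counting used strand, is not given in the sources used here. Any poplar read matching a fungal transcript enters these counts. The submitters' processing notes name DESeq2. The deposited RPKM values were used only to derive gene lengths. The deposited tables hold no comparison columns.

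Counts were tested in edgeR 4.0.16 (R 4.3.3, limma 3.58.1) with the quasi-likelihood test, TMM scaling, 1 coefficient per group over all 37 libraries and a low-count filter by group (minimum count 10, minimum total 15). A call needed a Benjamini-Hochberg adjusted p under 0.05 and a change of at least 1 on the log2 scale. CPM used TMM-scaled library sizes, and the SE came from the fold change and its F value. No pair of libraries in a group agreed within sampling noise. The tests were checked on simulated data. The p-values weigh a difference between groups against a spread between libraries that was estimated over all 37 libraries.

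Gene models carry JGI protein numbers. Annotation words came from the study's supplementary tables (3215 of 23130 gene models), and 6580 gene models matched a locus tag of the reference table, 351 of them with a symbol. Members, lists and the rule for named gene models were chosen with earlier results of these data known. The rule took the 14 largest rises and 8 largest falls without overlap between ExM and FLM and with a mean log2 CPM of 1 or more, the 6 smallest adjusted p, the EcM markers, up to 3 called members per list, and per later day the 2 called gene models whose effect moved most each way. Lists were described by counts and medians.

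Alternatives were DESeq2 1.42.0 and its size factors, a replicate block, no filter, a stricter filter (50 counts in 3 libraries), fewer libraries in the fit, other fold minimums, edgeR's glmTreat and leaving out each library.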

Additional observations from a re-analysis of the deposited data

Results flagged for a closer look

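The ExM effect differed between days by a direct test in 18 gene models for 7 against 3 dpi, 35 for 14 against 3 dpi and 396 for 21 against 3 dpi. Among gene models called at 3 dpi, the secreted ribonuclease 695194 had a difference of 2.00 ± 0.36 (log2, SE; adjusted p = 0.0057) at 7 dpi and 1.79 ± 0.42 (adjusted p = 0.049) at 14 dpi. Gene model 701296, without annotation, had 7.76, 9.69 and 8.95 CPM in ExM, against 21.2, 26.4 and 16.4 CPM in FLM at 3 dpi, and the difference in its effect was 1.55 ± 0.27 at 7 dpi (adjusted p = 0.0054). Its mean at 21 dpi was 182 ± 17.7 CPM in ExM, against 95.8 ± 14.8 CPM in FLM, the opposite direction. At 14 dpi the effect of 480059 differed by -1.81 ± 0.40 (adjusted p = 0.041) and that of 640381 by -1.77 ± 0.39 (adjusted p = 0.044). Gene model 483633 differed by 4.87 ± 1.14 (adjusted p = 0.049) at 14 dpi, and it had 1, 3 and 4 counts in ExM, against 14, 16 and 54 counts in FLM at 3 dpi.

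At 21 dpi the differences were -4.81 ± 1.04 for the 2-nitropropane dioxygenase 467898 (adjusted p = 0.0044), -4.34 ± 0.89 for 700937 (adjusted p = 0.0029), 3.68 ± 1.12 for 472906 (adjusted p = 0.034) and 3.50 ± 0.46 for the bZIP gene model 336090 (adjusted p = 1.5e-05). Gene model 472906 had 0, 1 and 2 counts in ExM, against 8, 3 and 15 counts in FLM at 3 dpi. The bZIP gene model 336090 changed direction, with 9.50 ± 1.48 CPM in ExM and 1.84 ± 0.35 CPM in FLM at 21 dpi.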

How the results depend on the processing

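The 236 calls of ExM against FLM at 3 dpi were 688 with no fold minimum, 102 with a fold minimum of 2 on the log2 scale, 100 in a fit on their 6 libraries and 8, all rises, with glmTreat, which tests against the fold minimum itself. They were 237 with median of ratios size factors, 218 without the low-count filter, 219 with a stricter one, 271 with only ExM and FLM libraries and 305 with DESeq2, whose calls held 200 of the 203 rises and 29 of the 33 falls. Leaving out one library gave 71 (without ExM replicate 2) to 314 (without ExM replicate 1). For the ExM effect at a later day minus that at 3 dpi, a fit on the libraries compared gave 44 calls at 7 dpi and 56 at 14 dpi, and leaving out one library gave 11 to 49 at 7 dpi, 7 to 75 at 14 dpi and 285 to 749 at 21 dpi. ExM against T0 had 4 calls with its 5 libraries alone and 73 to 341 without one library, and EcM against ExM had 0 with its 6 libraries alone and 2 to 21 without one library. Each fewer-library fit has fewer degrees of freedom, and the part of that in the counts was not tested. Same-numbered ExM and FLM replicates did not deviate together (correlations of -0.05, -0.02 and -0.02), so no pairing by number showed. These correlations cannot exclude a shared plate or day, and EcM and ExM replicates were not checked in this way. With a replicate block the counts were 210 in the main comparison, 21, 24 and 375 for the later days, 158 against T0 and 6 for EcM against ExM. Of 77 named gene models none reversed under any alternative run. Calls were lost by 43 of 70 in the 6-library fit and by 32 of 77 without ExM replicate 2, against 1 of 74 with DESeq2. Depth limits the low falls, several of which had under 1 CPM in some libraries.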
